A study of Mus musculus with 12 samples.

Results

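Genes that mark T cells, natural killer (NK) cells and B cells were followed across tumours of 3 mouse lung adenocarcinoma lines. The set was given as 34 gene symbols, and a gene entered when a probe set of the array carried its symbol and no other. That held for 33 of the 34, out of 18193 genes in all: 16 of the T class, 9 of the NK class and 8 of the B class. The remaining symbol, Lck, was not analysed here. Where a gene had several such probe sets, the one with the highest mean over the 12 arrays stands for it.

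The cell lines were grown from tumours of p53R172H∆g/+ K-rasLA1/+ mice, which carry a mutant p53 allele and an activated K-ras allele. 393P came from a primary lung tumour and 393LN from a mediastinal lymph node, both of the same mouse. 344SQ came from a subcutaneous site in another mouse, so line, donor mouse and site cannot be told apart. All 3 lines share the genotype, each is a mass culture rather than a single clone, and the labels call 344SQ highly metastatic, 393LN intermediately metastatic and 393P non-metastatic. The arrays were made from tumours of these lines in syngeneic mice, dissected free of adjacent tissue and frozen. Each line has 4 arrays. The strain and age of the host mice, the site of the tumours and whether the 4 samples of a line came from separate animals are not stated in the sources used here, so p-values measure the spread between these samples.

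Lymphocytes in such a tumour come from the host. T cells recognise peptide through a receptor that signals through the CD3 chains, with CD4 or CD8 as co-receptor. Cytotoxic T cells and NK cells kill by releasing perforin and granzymes. B cells signal through surface immunoglobulin with the CD79 chains, and after activation they can become plasma cells, which secrete antibody. In a tumour homogenate, fewer cells of a type and less RNA per cell cannot be told apart.

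Levels are given as log2(intensity + 16), on which the lowest possible value is 4.09. The words rose and fell are kept for an adjusted p under 0.05 in a limma model over the 12 arrays with Benjamini-Hochberg adjustment over all 18193 genes. Array medians lay between 7.34 and 7.43. Actin probe sets at the 3' and 5' ends, whose ratio reads RNA quality, gave a ratio of 1.47 for 393P replicate 1, against 1.04 to 1.19 elsewhere (11 arrays). Of the 33 genes, 27 lay among the dimmest 50% of all genes by mean level (below 8.46) and 6 among the dimmest 25% (below 6.52): Cd2, Cd4, Cd27, Ctla4, Cd79b and Tnfrsf17. The pan-leukocyte gene Ptprc, which encodes CD45, lay between 9.51 and 10.82 in 344SQ, 10.34 and 11.17 in 393LN, and 10.63 and 11.27 in 393P.

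One of the 33 lymphocyte genes separated the lines by the test. Cd2, which encodes an adhesion receptor of T and NK cells, rose 1.91-fold in 344SQ against 393P. No gene of the set fell in that comparison, and none rose or fell in 344SQ against 393LN or in 393LN against 393P. Among all genes, 4.86% rose and 5.62% fell in 344SQ against 393P, 3.99% and 6.92% in 344SQ against 393LN, and 1.75% and 0.698% in 393LN against 393P. At an unadjusted p under 0.05 the limma counts were 2, 1 and 1 of the 33. The share of all genes at that p was not counted, so this count and those of the lists below are not set against one. The median change over the 33 genes was -0.04, -0.11 and 0.16 in these comparisons, beside -0.00, -0.02 and 0.01 over all genes.

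Many lymphocyte genes varied widely among arrays of one line. In 32 of the 33 genes, all but Cd2, the widest range within a line exceeded the range of the 3 line means, as it did in 87.8% of all genes, since single arrays spread more than means. No gene of the set separated 393LN from 393P without overlap; among all genes 6.69% lay wholly above and 3.57% wholly below. The median within-line standard deviation was 0.35 over the set and 0.23 over all genes. Between the highest and lowest of the 12 arrays, 9 of the 33 genes (27.3%) spanned more than 2 log2 units, as did 6.49% of all genes. These 9 were Cd3g and Cd8b1 of the T class, Gzma, Gzmb, Nkg7 and Klrd1 of the NK class, and Cd79a, Cd79b and Ms4a1 of the B class. The set and all genes were not matched for level in these comparisons, and 27 of the 33 genes lay among the dimmest 50%.

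**Figure D1:**
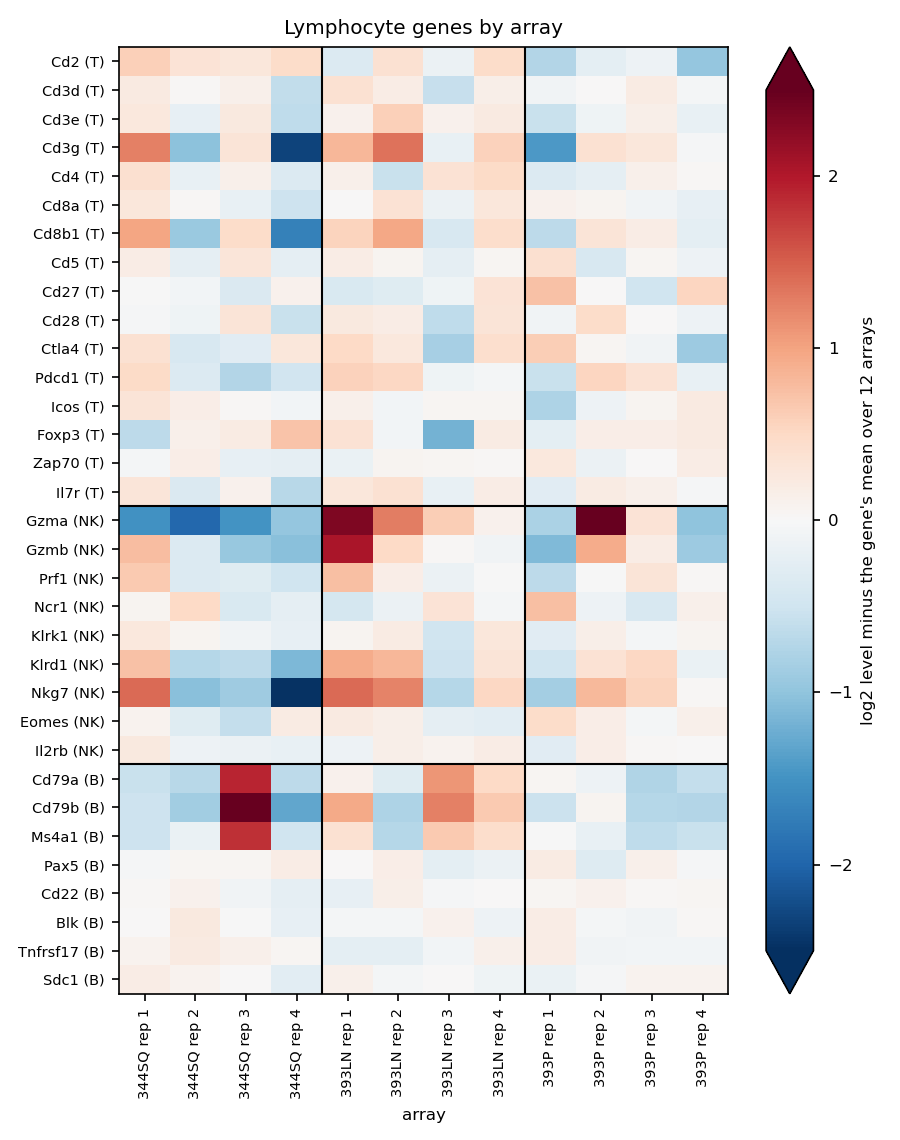
Level of each of the 33 genes on each of the 12 arrays (columns), as the log2 level minus that gene's mean over the arrays. Rows are grouped by class; the strongest departures are in Cd3g, Cd8b1, Gzma, Gzmb and Nkg7, and in Cd79a, Cd79b and Ms4a1 on 344SQ replicate 3.

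For 5 of the 8 genes that spanned more than 2.5 log2 units, the promoter table used, from RefSeq, has an entry, and the 250 bases before the start site (GRCm38.p6) are shown because these genes are among those that varied most between tumours. Capitals mark matches, on either strand, to an ETS core (AGGAAG), a RUNX core (TGTGGT) or an AP-1 site (TGANTCA), letters bound by factor families active in lymphocytes. No matches in a printed sequence overlap.
Gzma, chr13:113100982-113101231, minus strand: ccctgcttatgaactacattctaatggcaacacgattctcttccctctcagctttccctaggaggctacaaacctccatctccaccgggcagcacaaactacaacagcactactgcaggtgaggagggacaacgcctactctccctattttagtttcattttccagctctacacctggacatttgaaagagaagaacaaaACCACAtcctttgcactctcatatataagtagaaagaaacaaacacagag
Gzmb, chr14:56262335-56262584, minus strand: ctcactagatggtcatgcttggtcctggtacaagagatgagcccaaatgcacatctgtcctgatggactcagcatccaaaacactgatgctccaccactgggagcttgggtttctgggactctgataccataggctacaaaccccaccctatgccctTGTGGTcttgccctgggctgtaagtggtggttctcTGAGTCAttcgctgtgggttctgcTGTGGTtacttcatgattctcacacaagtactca
Nkg7, chr7:43436888-43437137, plus strand: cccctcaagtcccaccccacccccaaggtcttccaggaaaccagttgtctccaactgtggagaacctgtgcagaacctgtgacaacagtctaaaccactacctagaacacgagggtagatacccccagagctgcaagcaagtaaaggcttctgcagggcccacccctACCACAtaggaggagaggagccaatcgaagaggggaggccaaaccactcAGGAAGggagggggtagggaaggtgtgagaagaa
Cd3g, chr9:44980432-44980681, minus strand: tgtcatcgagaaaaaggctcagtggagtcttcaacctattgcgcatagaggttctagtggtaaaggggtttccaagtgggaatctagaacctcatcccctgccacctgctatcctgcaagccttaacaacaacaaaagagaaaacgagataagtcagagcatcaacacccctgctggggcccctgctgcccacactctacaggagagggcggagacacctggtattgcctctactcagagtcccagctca
Cd79a, chr7:24897247-24897496, plus strand: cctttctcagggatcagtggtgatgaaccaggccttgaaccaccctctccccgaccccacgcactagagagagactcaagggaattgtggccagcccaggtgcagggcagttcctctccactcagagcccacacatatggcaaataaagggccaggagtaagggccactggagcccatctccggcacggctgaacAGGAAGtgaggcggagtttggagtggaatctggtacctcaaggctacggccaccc

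The RUNX letters occurred before all 3 of Gzma, Gzmb and Nkg7, with 2 matches before Gzmb, and before neither Cd3g nor Cd79a. They occur in 14.0% of the 32851 RefSeq windows of the same length. The ETS letters occurred before Nkg7 and Cd79a (29.5% of all windows) and the AP-1 letters before Gzmb (6.75%). Searches for an octamer (ATTTGCAT) and an EBF-type palindrome (CCCNNGGG) found no match in the 5 windows; 1.6% and 11.8% of all windows hold them. Of the 24 symbols of the set with an entry, 8 held the RUNX letters in a window, 13 the ETS letters and 1 the AP-1 letters. The EBF-type letters occurred in 5 and the octamer in 0. Those with RUNX letters include Klrk1 and Ncr1, which varied less. A match describes letters and not a bound site.

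The class means placed the arrays as follows. For the 16 T class genes, the mean level on replicates 1 to 4 was 7.58, 7.09, 7.32 and 6.85 in 344SQ, 7.48, 7.55, 7.01 and 7.53 in 393LN, and 7.04, 7.33, 7.33 and 7.16 in 393P. The 3 lines overlap, and 344SQ holds both the highest and the lowest array of the 12. For the 9 NK class genes, the means were 8.001, 7.22, 7.09 and 6.97 in 344SQ, 8.50, 8.18, 7.58 and 7.81 in 393LN, and 7.33, 8.31, 7.85 and 7.51 in 393P. Here 3 of the 4 344SQ arrays lay below every array of 393LN and 393P, and 344SQ replicate 1 lay among them. The 8 B class genes had means of 8.13, 8.17, 9.09 and 7.93 in 344SQ, 8.42, 8.06, 8.64 and 8.46 in 393LN, and 8.29, 8.21, 8.04 and 8.07 in 393P. Sdc1, which epithelial cells also make, lay at 13.19 to 13.63 and lifts each of these B class means. The high array was 344SQ replicate 3, which was not high in the NK class.

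The differences between line means of a class are set beside the spread within a line. The T class mean in 344SQ stood at -0.01 relative to 393P and -0.18 relative to 393LN, and 393LN at 0.18 relative to 393P, with a pooled within-line SD of 0.25. Without 344SQ replicate 4 the T class difference to 393P was 0.11, and without 344SQ replicate 1 it was -0.13. For the NK class the same differences were -0.43, -0.70 and 0.26 (SD 0.43), so that the difference to 393LN was larger than the SD. That difference was uneven over the genes. Gzma, Nkg7, Gzmb and Klrd1 had changes of -2.56, -1.36, -1.01 and -0.83 in 344SQ against 393LN. The other NK class genes lay between -0.32 (Prf1) and 0.06 (Ncr1), and the class median was -0.32. Leaving out 1 array moved the NK class differences to between -0.66 (without 344SQ replicate 1) and -0.24 (without 393P replicate 2), between -0.92 and -0.54, and between 0.11 (without 393LN replicate 1) and 0.45 (without 393P replicate 2). For the B class they were 0.18, -0.07 and 0.25 (SD 0.34); without 344SQ replicate 3 the difference to 393P was -0.08. No test is given for a class mean, because the members were chosen with results of these data known.

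**Figure D2:**
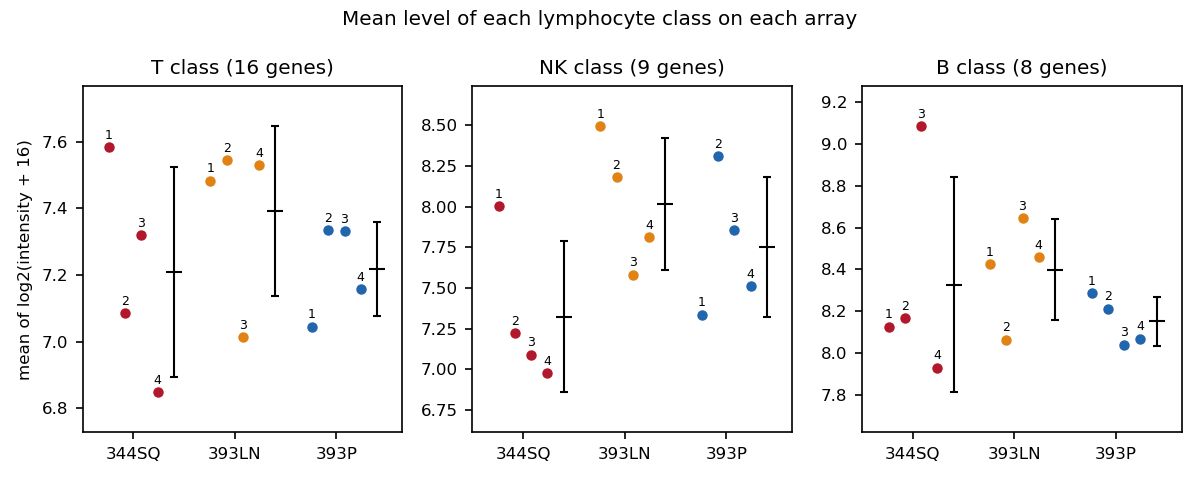
Mean of log2(intensity + 16) over the genes of each class on each array; numbers beside points are replicates, and the bar beside each line is the mean ± SD of its 4 arrays. 344SQ replicate 3 stands above the other arrays in the B class at 9.09, and 344SQ replicates 2 to 4 lie lowest in the NK class at 6.97 to 7.22.

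Cd2 lay at 6.35, 6.09, 6.03 and 6.20 on the 344SQ arrays, at 5.40, 6.13, 5.61 and 6.20 on the 393LN arrays and at 5.01, 5.51, 5.62 and 4.78 on the 393P arrays. All 344SQ values were above all 393P values, while 393LN overlapped both. In 344SQ against 393P the log2 change was 0.94 ± 0.22 (SE, n = 4 per line, limma adjusted p = 0.0162). The size depends on the pseudocount: with 1 in place of 16 the log2 change was 1.38 and with 64 it was 0.48, and it passed with both (adjusted p = 0.0248 and 0.0190). The adjusted p stayed between 0.0119 and 0.0463 when any 1 of the 12 arrays was left out. No other of the 33 genes had lines that did not overlap in that comparison; among all genes, 8.12% lay wholly above and 8.62% wholly below 393P. In 393LN against 393P the change of Cd2 was 0.60 (adjusted p = 0.179) and in 344SQ against 393LN 0.33 (adjusted p = 0.374). Since Cd2 is among the dimmest 25% of genes, it is not tested when those genes are left out.

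No other T class gene passed the test in any comparison. The CD3 chain genes Cd3d, Cd3e and Cd3g, whose products couple the receptor to signalling, had changes of -0.08, 0.10 and -0.24 in 344SQ against 393P (adjusted p = 0.880, 0.851 and 0.887). Cd3g lay at 8.96, 6.68, 8.03 and 5.39 in 344SQ, at 8.53, 9.06, 7.51 and 8.29 in 393LN and at 6.27, 8.09, 7.99 and 7.67 in 393P. Its range within 344SQ, 3.57 log2 units, was wider than any difference between lines. Cd3d and Cd3e had much smaller ranges over all arrays, 1.0 and 1.22. On both the lowest array was 344SQ replicate 4, as it was for Cd3g.

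The co-receptor genes gave no call. Cd8b1, the beta chain of CD8, lay at 7.87, 5.95, 7.34 and 5.20 in 344SQ, at 7.44, 7.85, 6.48 and 7.32 in 393LN and at 6.23, 7.20, 7.07 and 6.64 in 393P. Its 344SQ arrays were ordered as those of Cd3g were, with replicate 1 highest and replicate 4 lowest. The probe set used for Cd8a, the alpha chain, spanned 7.82 to 8.71, and its lowest array was again 344SQ replicate 4. Its change was -0.07 in 344SQ against 393P and -0.22 against 393LN. Cd4, the co-receptor of helper T cells that some macrophages also carry, lay between 5.16 and 6.20 on all arrays.

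Co-stimulatory and inhibitory receptor genes of T cells did not pass the test either. Pdcd1, which encodes the checkpoint receptor PD-1, lay at 7.27, 6.45, 6.06 and 6.31 in 344SQ, at 7.36, 7.31, 6.68 and 6.73 in 393LN and at 6.24, 7.32, 7.14 and 6.61 in 393P. Its change was -0.50 ± 0.29 (SE) in 344SQ against 393LN (limma adjusted p = 0.318). Ctla4, another checkpoint receptor gene, spanned 4.23 to 5.74, near the floor. Cd28 and Icos, which encode co-stimulatory receptors, had changes of -0.16 and 0.26 in 344SQ against 393P, and Cd27, of the same function, one of -0.28. Foxp3, the regulatory T cell factor gene, lay between 7.14 and 8.51 in 344SQ, 6.62 and 8.15 in 393LN, and 7.56 and 8.03 in 393P. Within 344SQ it ran opposite to Cd3g, lowest on replicate 1 and highest on replicate 4.

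The last T class genes to describe gave no call. Il7r, the receptor for the survival cytokine interleukin-7, spanned 8.30 to 9.36, with 344SQ replicate 4 lowest. Cd5, a receptor that tempers T cell signals, spanned 6.47 to 7.28. Zap70, the kinase gene downstream of CD3, spanned 10.98 to 11.47, 0.49 log2 units in all.

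Counting arrays rather than values shows where the T class was high and low. 344SQ replicate 1 held the highest value of its line in 11 of the 16 genes, and 344SQ replicate 4 the lowest in 10. Over all 12 arrays, 344SQ replicate 4 was lowest in 7 genes. In 393LN, replicate 3 was lowest of its line in 10 genes; in 393P, replicate 1 was lowest in 9 and highest in 5. 393P replicate 1 is also the array with the highest actin ratio, and the part of RNA quality in its values was not tested.

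Of the NK class, the granzyme gene Gzma showed the largest differences between lines. It lay at 6.63, 6.16, 6.64 and 7.17 in 344SQ, at 10.46, 9.40, 8.74 and 8.23 in 393LN and at 7.34, 11.20, 8.47 and 7.12 in 393P. All 344SQ values were below all 393LN values, the only such gene of the 33, as for 10.7% of all genes (6.72% lay wholly above), but 393P replicate 4 lay within the 344SQ range. The log2 change in 344SQ against 393LN was -2.56 ± 0.76 (SE, n = 4 per line, 95% interval -4.21 to -0.90), with a limma adjusted p of 0.0504, which did not pass. With each array centred on its median the adjusted p was 0.0446, in a fit of the 2 lines alone 0.0125, and with the dimmest 25% of genes left out 0.0358. It did not pass with quantile normalization (0.0502), the mean of all probe sets (0.0532), a pseudocount of 1 (0.0581) or 64 (0.0705) or a trended prior (0.0679). Over the fits that leave out 1 array it ran from 0.00607 to 0.129, and it was under 0.05 in 4 of 12. Against 393P the change was -1.88 ± 0.76 (adjusted p = 0.151); leaving out 393P replicate 2 brought it to -0.99.

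Gzmb, which encodes the other main killer granzyme, was ordered differently. Its levels were 9.21, 8.09, 7.48 and 7.39 in 344SQ, 10.47, 8.93, 8.46 and 8.35 in 393LN, and 7.32, 9.37, 8.61 and 7.53 in 393P. The lines overlap, and 344SQ replicate 1, which was low for Gzma, was the third highest array for Gzmb. The changes were -1.01 ± 0.57 in 344SQ against 393LN and -0.16 ± 0.57 against 393P (limma adjusted p = 0.299 and 0.911). Both granzyme genes were highest in 393LN on replicate 1 and highest in 393P on replicate 2.

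Nkg7, a granule membrane protein gene of cytotoxic cells, lay at 9.63, 7.16, 7.31 and 5.74 in 344SQ, at 9.62, 9.44, 7.48 and 8.73 in 393LN and at 7.36, 9.03, 8.75 and 8.24 in 393P. Its 344SQ arrays spanned 3.89 log2 units and included the highest and the lowest value of all 12. The change in 344SQ against 393LN was -1.36 ± 0.71 (limma adjusted p = 0.261). Without 344SQ replicate 1 it was -2.08 and passed (adjusted p = 0.0486).

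Klrd1, which encodes the CD94 chain of NK receptors, lay at 8.23, 6.78, 6.85 and 6.38 in 344SQ, at 8.43, 8.32, 6.98 and 7.83 in 393LN and at 7.002, 7.85, 8.01 and 7.34 in 393P. The lines overlap, and replicate 1 was again high and replicate 4 low within 344SQ. Prf1, the perforin gene, spanned 7.06 to 8.49 on the probe set used, with its highest arrays 393LN replicate 1 and 344SQ replicate 1. Its other probe set spanned 6.83 to 7.96 and was ordered the other way within 344SQ. There replicate 1 was lowest at 7.26 and replicate 4 highest at 7.96. On the probe set used, the remaining NK class genes moved little. Klrk1, which encodes the activating receptor NKG2D, and Il2rb, a receptor chain for interleukins 2 and 15, spanned 0.78 and 0.52 log2 units. Ncr1, the NK receptor gene for NKp46, and Eomes, a factor of NK and memory T cells, spanned 1.19 and 1.05. None of these passed the test in any comparison.

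**Figure D3:**
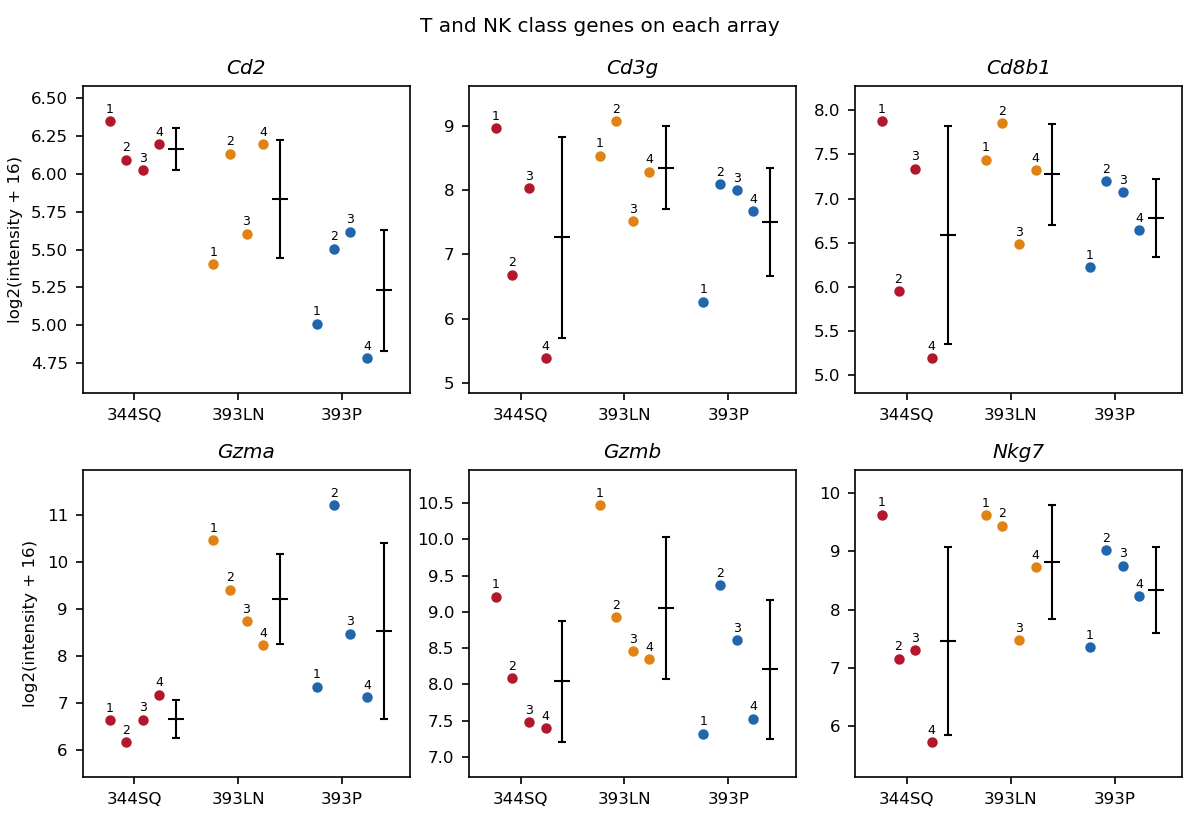
Level on each array, as log2(intensity + 16), of 6 T and NK class genes; numbers are replicates and bars the mean ± SD of 4 arrays. All 344SQ values of Cd2 lie above those of 393P, those of Gzma lie below those of 393LN, and within 344SQ Cd3g, Cd8b1 and Nkg7 are highest on replicate 1 and lowest on replicate 4.

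On the probe sets used, the B class split into 3 genes that varied widely and 5 that did not. Cd79a, the signalling chain of the B cell receptor, lay at 6.51, 6.37, 8.98 and 6.41 in 344SQ, at 7.18, 6.77, 8.16 and 7.57 in 393LN and at 7.12, 6.93, 6.32 and 6.48 in 393P. Cd79b, its partner chain, lay at 5.66, 5.32, 8.72 and 4.88 in 344SQ, at 7.13, 5.42, 7.44 and 6.84 in 393LN and at 5.65, 6.25, 5.47 and 5.45 in 393P. Ms4a1, which encodes CD20, lay at 6.86, 7.21, 9.21 and 6.88 in 344SQ, at 7.75, 6.66, 8.04 and 7.82 in 393LN and at 7.37, 7.19, 6.74 and 6.81 in 393P. On all of them 344SQ replicate 3 was highest, followed by 393LN replicate 3, and in 393LN replicate 2 was lowest.

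The lines overlap in each of these B cell genes, and none passed. In 393LN against 393P the changes were 0.71 for Cd79a, 1.003 for Cd79b and 0.54 for Ms4a1 (limma adjusted p = 0.575, 0.557 and 0.657). In 344SQ against 393P they were 0.35, 0.44 and 0.51, and without 344SQ replicate 3 they were -0.28, -0.41 and -0.04. The other probe set of Ms4a1 spanned 4.29 to 7.84 and also had its highest value on 344SQ replicate 3.

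The flat B class genes were Pax5, the B lineage factor gene, Cd22, an inhibitory co-receptor gene, the kinase gene Blk, Tnfrsf17, which encodes the plasma cell receptor BCMA, and Sdc1, which encodes syndecan-1. On the probe sets used they spanned 0.52, 0.38, 0.45, 0.48 and 0.44 log2 units over the 12 arrays, and 344SQ replicate 3 was not the highest array in any of them. Sdc1 marks plasma cells and is also made by epithelial cells; its level was 13.19 to 13.63.

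B cell and plasma cell genes outside the set, chosen after their values were seen, separated arrays further. Pou2af1, a B cell transcriptional co-activator gene, lay at 6.90, 5.78, 9.55 and 6.004 in 344SQ, at 7.48, 6.31, 8.12 and 7.63 in 393LN and at 6.34, 8.79, 6.22 and 5.89 in 393P. Jchain, the joining chain of secreted antibody, lay at 11.78, 6.77, 12.48 and 7.35, at 10.29, 8.25, 11.66 and 11.28, and at 8.88, 12.44, 9.50 and 7.19 in the same order. Ighm, the heavy chain of immunoglobulin M, lay at 11.77, 9.87, 12.98 and 9.66, at 10.91, 10.54, 12.62 and 12.07, and at 10.79, 13.33, 10.96 and 9.41. All 3 were high on 344SQ replicate 3. They were also high on 393P replicate 2, where Cd79a, Cd79b and Ms4a1 stood at 6.93, 6.25 and 7.19; on 344SQ replicate 1, Jchain and Ighm were high while Cd79a was at 6.51.

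**Figure D4:**
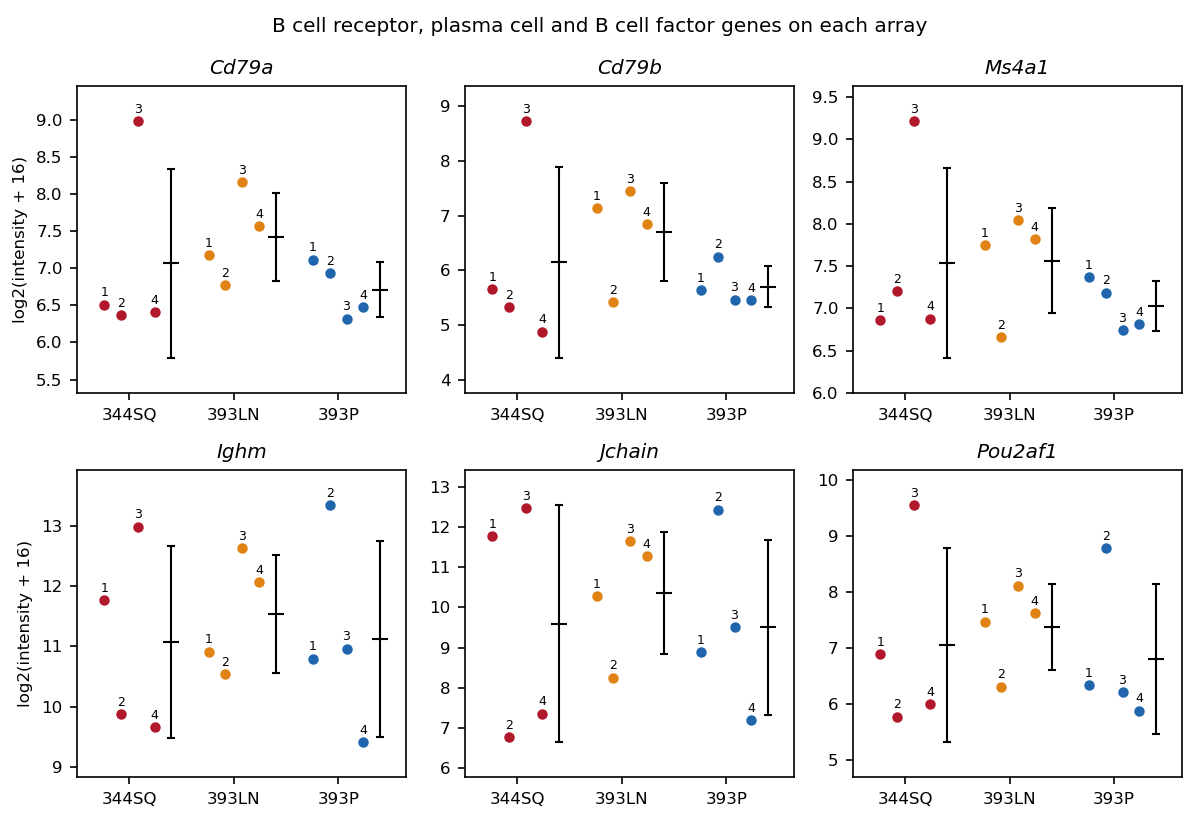
Level on each array, as log2(intensity + 16), of 3 B class genes (top) and 3 further B and plasma cell genes (bottom); numbers are replicates and bars the mean ± SD of 4 arrays. 344SQ replicate 3 is high in all 6 panels, and 393P replicate 2 is high in the bottom row, at 13.33 for Ighm, 12.44 for Jchain and 8.79 for Pou2af1.

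Other B cell genes, chosen after their values were seen, were also high on 344SQ replicate 3. Bank1, a B cell scaffold gene, lay there at 8.14 (6.09 to 6.19 on the rest of the line), and Cd37, a leukocyte tetraspanin gene, at 8.33 (5.85 to 6.63). A gene of lymph node vessels, also chosen after its values were seen, moved with them: Glycam1 was at 6.95 on 344SQ replicate 3, at 5.32, 4.88 and 4.44 on 393LN replicates 3 and 1 and 393P replicate 2, and at the floor on the other 8 arrays. Ltb, which encodes lymphotoxin beta, was at 9.11 on 344SQ replicate 3 and at 9.49 on 393P replicate 2. The lymph node stroma list as a whole (7 of 10 genes measured) had means of 6.24 to 7.39 in 344SQ, 6.43 to 6.93 in 393LN and 6.48 to 6.85 in 393P, with 344SQ replicate 3 highest. The list includes Glycam1 and Ltb, and it names Cr2, which the list of B cell factors also names. Its mean is thus not separate from the values above. Whether node tissue has a part in these B cell values was not tested.

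Interferon gamma and genes linked to it or to killer granules were set beside the cytotoxic genes. Ifng itself lay at 6.63, 5.24, 5.07 and 5.11 in 344SQ, at 6.68, 7.14, 5.48 and 6.28 in 393LN and at 4.91, 6.03, 5.92 and 6.21 in 393P. Cxcl9, a chemokine that draws T cells, lay at 11.56, 10.56, 8.73 and 5.63 in 344SQ, at 11.18, 11.95, 10.21 and 11.23 in 393LN and at 9.38, 10.87, 10.96 and 11.07 in 393P. Cxcl10, of like function, was highest at 11.77 on 344SQ replicate 1 and lowest at 6.92 on 344SQ replicate 4, and spanned 9.51 to 10.72 over 393LN and 393P. Cst7, an inhibitor of granule proteases, was highest on 344SQ replicate 1 at 8.04 and lowest on replicate 4 at 5.89. Thus 344SQ replicates 1 and 4, the high and low arrays of Cd3g, Cd8b1 and Nkg7, were also the high and low arrays of Cxcl9, Cxcl10 and Cst7. None of these 4 genes, chosen after their values were seen, passed in a comparison of lines.

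Lists of related lymphocyte genes gave few calls. Of 18 T cell receptor signalling genes none passed in the limma fit of any comparison, with 0, 1 and 0 at an unadjusted p under 0.05, and the median changes were 0.01 and 0.01 for 344SQ (relative to 393P, then 393LN) and -0.03 for 393LN relative to 393P. The lowest p of that list were for Thy1, a surface glycoprotein gene of T cells and fibroblasts (0.52 in 344SQ against 393LN, adjusted p = 0.117), and Sla2, an adaptor gene (-0.22 in 393LN against 393P, adjusted p = 0.328). Of 13 T cell transcription factors 2 fell in 344SQ against 393P. Nfatc2, a factor activated by calcium, fell by 1.11 (adjusted p = 0.0163) and Tox, a factor of T cell differentiation and exhaustion, by 0.82 (adjusted p = 0.0472). Neither passed with the mean of all its probe sets (adjusted p = 0.259 and 0.435), and the call of Tox was lost with a pseudocount of 1 (0.0618) and without any 1 of 10 of the 12 arrays (highest adjusted p 0.105). Of 10 further checkpoint and costimulatory receptor genes, Tnfrsf18, which encodes GITR, fell by 0.96 in 344SQ against 393P (adjusted p = 0.00523).

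Among the lymphocyte lists, that of cytotoxic effectors and NK receptors, the longest, held the most calls. Of its 21 measured genes 1 rose and 1 fell in 344SQ against 393P, and 2 rose and 2 fell in 344SQ against 393LN. Klrc1, which encodes the NKG2A partner of CD94, fell by 1.84 ± 0.41 in 344SQ against 393LN (limma adjusted p = 0.0150). Its 344SQ levels were 8.30, 8.01, 8.31 and 10.19, and its 393LN levels 10.03 to 11.18. The call ended without 344SQ replicate 2 (adjusted p = 0.0511). Gzme, a granzyme gene also known in other tissues, rose by 1.63 ± 0.40 there (adjusted p = 0.0237; highest 0.0732, with 6 of the 12 arrays able to end the call when left out). Xcl1, a chemokine of NK and CD8 T cells, rose by 0.88 against 393P and 0.72 against 393LN (adjusted p = 0.0211 and 0.0498), calls that ended without any 1 of 5 and 10 arrays (highest 0.0664 and 0.129). With a pseudocount of 64 the changes of Xcl1 were 0.48 and 0.39. Its call against 393LN also ended in the fit of the 2 lines (0.0981), with pseudocounts of 1 and 64 (0.0624 and 0.0563), with quantile normalization (0.051), with the mean of all probe sets (0.0508) and with a trended prior (0.0516). Tyrobp, an adaptor of NK and myeloid cells, fell by 0.92 and 0.59 (adjusted p = 0.00499 and 0.0450), the second call ending without any 1 of 9 arrays (highest 0.116), in the fit of the 2 lines (0.0831), with a pseudocount of 1 (0.0563) and with quantile normalization (0.0696).

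Of 19 genes of B cell signalling and B cell factors and of 10 plasma cell genes none passed in any comparison; at an unadjusted p under 0.05 the limma counts were 2, 1 and 0, and 1, 0 and 0. The lowest p were, all in 344SQ against 393P, for the B lineage factor gene Ebf1 (0.56, adjusted p = 0.142), the surface antigen gene Cd24a (0.28, 0.160), the secretory factor gene Xbp1 (0.91, 0.1) and the receptor gene Tnfrsf13b (-0.26, 0.290). Of 17 homing and survival genes, Cxcr3, the receptor for Cxcl9 and Cxcl10, rose in 344SQ against 393P by 0.65 (adjusted p = 0.0107), and it kept its call without any 1 of the 12 arrays.

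Markers of other cells were measured on the same arrays. The mean over 15 genes of all leukocytes lay between 9.45 and 10.16 in 344SQ, 9.94 and 10.33 in 393LN, and 10.06 and 10.54 in 393P; 1 of them, Cd52, fell in 344SQ against 393P (by 0.99, adjusted p = 0.0195, and 0.0603 without 344SQ replicate 2). In 344SQ against 393P, 14 of these 15 leukocyte genes had a change below 0, with a median of -0.42 and 7 at an unadjusted p under 0.05; against 393LN the median was -0.39, with 14 below 0 and 3 at that p. The mean over 16 macrophage and monocyte genes lay between 10.19 and 11.06, 10.60 and 11.20, and 10.76 and 11.44. Of these, 13 had a change below 0 in 344SQ against 393P (median -0.63, 11 at an unadjusted p under 0.05) and 12 against 393LN (median -0.50, 7 at that p). The median change over all genes was -0.00 in 344SQ against 393P and -0.02 against 393LN. The shares of all genes below 0 or at an unadjusted p under 0.05 were not counted, so the counts of these 2 lists are not set against them. The leukocyte and macrophage means were lowest on 344SQ replicate 4, the array lowest for Cd3g, Cd8b1 and Nkg7. Within 344SQ the mast cell and dendritic cell means were also lowest there, at 7.82 and 6.90. The neutrophil mean was highest there, at 9.71, against 7.76, 8.70 and 8.26 on replicates 1 to 3. The part of total leukocyte content in the values of Cd3g, Cd8b1 and Nkg7, and in the lower NK class and Tyrobp values of 344SQ, was not tested. The other lists, by genes that rose and fell in 344SQ against 393P and then against 393LN, were neutrophils (11 genes, 0 and 3, 0 and 2), mast cells (10, 2 and 1, 2 and 0), dendritic cells (9, 0 and 1, 0 and 1), erythroid cells and platelets (6, 0 and 1, 0 and 0), endothelium (10, 1 and 0, 1 and 0), fibroblasts (10, none), epithelial tumour cells (10, 0 and 4, 0 and 4) and lymph node stroma (7, none). For macrophages and monocytes the counts were 0 and 2, then 1 and 1. In 393LN against 393P, 2 mast cell genes fell and no other gene of these lists passed.

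Probe sets of one gene did not always vary alike. In 13 of the 33 genes there were other probe sets, 20 in all, and none passed in any comparison after adjustment over the 34945 probe sets with 1 symbol (lowest limma adjusted p 0.149). In all of the 13 genes but Cd4 and Prf1 the brightest probe set varied less than a dimmer one. The ranges were 0.49 and 1.02 for Zap70, 1.06 and 2.18 for Il7r, and 1.11 and 1.70 for Icos. They were 0.52 and 1.28 for Il2rb, 0.52 and 1.25 for Pax5, 1.05 and 1.59 for Eomes, and 0.38 and 0.77 for Cd22. The small ranges given above for these genes thus hold for the probe set used. Cd8a has 5 probe sets. The one used spanned 0.89 log2 units, and another ran from 4.54 on 344SQ replicate 4 to 7.23 on 393P replicate 1, with a change of -1.07 in 344SQ against 393P (adjusted p = 0.222). One dimmer probe set of Sdc1 lay at 7.71 on 393P replicate 1 and at 10.95 to 12.41 on the other arrays.

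**Figure D5:**
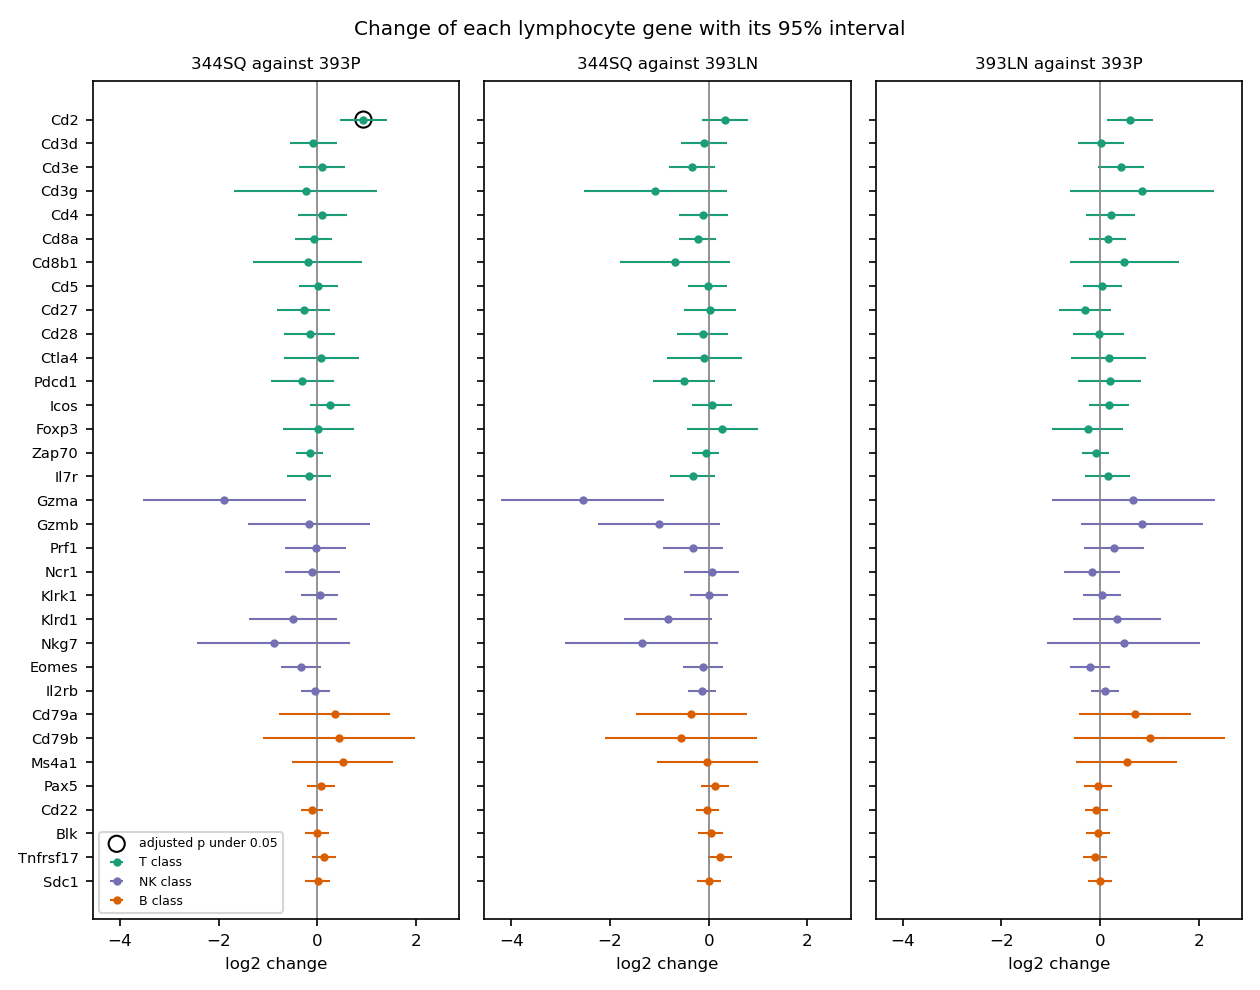
Log2 change of each of the 33 genes in the 3 comparisons (points), with 95% intervals from the limma fit (bars), coloured by class. Only Cd2 in 344SQ against 393P is circled for an adjusted p under 0.05; the intervals of Gzma, Nkg7, Cd3g and Cd79b are the widest.

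The intervals show what size of difference these arrays leave possible. For Cd22 in 344SQ against 393P the 95% interval ran from -0.34 to 0.13. For Cd3g it ran from -1.69 to 1.22, and for Nkg7 from -2.44 to 0.67. The interval of Cd3g holds changes of 2-fold in either direction.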

How the data were processed

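Total RNA of 12 tumour samples was labelled with biotin and hybridised to 1-colour Affymetrix arrays, per the labels' protocols. The probe set intensities are used as deposited, on a linear scale; for the summarising software and normalization, the sources used here name none. In all 45101 rows every value (100%) is a power of 2 with an exponent of 2 decimals, to within 1e-08. The design text names a 430A chip, but the 45101 rows go with the platform annotation, which is for a larger chip. Every symbol comes from that annotation, matched by probe set ID. Only the 34945 probe sets with 1 symbol in the platform annotation were used (932 have several, 9160 none, 64 are controls); 0 symbols changed when updated and 0 other value columns were present.

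Values were taken as log2(intensity + 16), which understates the change of dim genes, with no further normalization or filter. The model had 1 mean for each line and all 12 arrays, in limma 3.58.1 (R 4.3.3), with moderated variances, two-sided, with 9 residual degrees of freedom; probe sets were also fitted singly. The fit was tested on simulated data. The number of arrays limits the precision, and none of the 66 pairs of arrays held identical gene values.

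The members, the classes and the gene lists were chosen with earlier results of these data known. Named genes are all members, and list genes with an adjusted p under 0.05 (up to 4 per list and comparison, or the 2 of lowest p where none passed). Lists of other cells, all leukocytes excepted, are given by counts, with means or medians for some, and without naming their called genes. That departs from the rule. Other genes are marked as chosen after their values were seen. Alternatives were quantile normalization, median centring, filters that drop the dimmest 25% or 50% of genes, pseudocounts of 1 and 64, the mean of all probe sets, a trended robust prior, a fit of the 2 lines compared and leaving out each array. Promoter letters come from RefSeq tables (24 of the 34 symbols have an entry).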

Additional observations from a re-analysis of the deposited data

Results flagged for a closer look

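In groups of 4 arrays, a sample was singled out when its gap to the nearest other array was too large a share of the group's range by Dixon's test at 95%. Of the 99 groups of the 33 lymphocyte genes, 6 had such a sample; chance gives about 1 in 20. Over all 165 groups 18 did, but the others include genes chosen after their values were seen and are not to be set against chance. For Glycam1 the remaining arrays of the line are all at the floor, so any value above it stands apart by construction.

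344SQ replicate 3 stood high for Cd79a (8.98, others 6.37 to 6.51), Ms4a1 (9.21, others 6.86 to 7.21), Bank1 (8.14) and Glycam1 (6.95, others at the floor of 4.09). 344SQ replicate 1 stood high for Il2rb (8.06, others 7.62 to 7.69) and Ifng (6.63), and 344SQ replicate 4 for Klrc1 (10.19, others 8.01 to 8.31). In 393LN, replicate 3 stood low for Cd28 (6.16, others 6.98 to 7.11) and for the T class mean (7.01, others 7.48 to 7.55), and replicate 2 for Bank1 (5.97) and Cd37 (6.23). In 393P, replicate 1 stood low for Foxp3 (7.56, others 7.96 to 8.03), Cxcl9 (9.38), Cxcl10 (9.64) and Klrc1 (9.37) and high for Tnfrsf17 (6.66, others 6.39 to 6.42), while replicate 2 stood high for Pou2af1 (8.79, others 5.89 to 6.34) and Glycam1 (4.44).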

How the results depend on the processing

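The 33 genes were recomputed under 21 alternatives, 12 of which leave out 1 array; 6 genes have no value without the dimmest 25% of genes and 27 none without the dimmest 50%. Of 1980 recomputed changes none lost a call, 8 gained one and none of the called reversed. Only Cd2 in 344SQ against 393P had a call to lose or reverse. Leaving out an array of a line not compared cannot alter a change or a class difference. In all, 118 differences changed sign, all in comparisons without a call. The number of genes higher in 344SQ than in 393P was 1 (Cd2) except with the dimmest 25% or 50% of genes left out, where it was 0 because Cd2 is then not tested. The number lower in 344SQ than in 393LN was 0, and 1 (Gzma) with median centring, in the fit of the 2 lines and without the dimmest 25% of genes; leaving out 1 array it was 0 to 1 (Gzma without 393LN replicate 4 or 393P replicate 1, 2 or 4, and Nkg7 without 344SQ replicate 1). All 168 recomputed class mean differences stayed within 1 SD of the value given, and 11 changed sign. For the fits that leave out 1 array this was fixed in advance. Dropping 1 of 4 arrays cannot move a line mean by the pooled within-line SD, so only the other alternatives could have exceeded it. The NK class mean has no value without the dimmest 50% of genes, since none of its genes is left. No paired analysis was possible because the labels give no replicate numbers shared by the lines. Depth is not defined for these arrays, and 27 of the 33 genes lie among the dimmest 50%.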
